A study of Mus musculus with 2 samples.

Results

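Expression of 9 T cell receptor genes was examined in single immune cells of mouse adipose tissue. The genes were the constant genes of the receptor chains, Trac (alpha), Trbc1 and Trbc2 (beta), Trdc (delta), Tcrg-C1, Tcrg-C2 and Tcrg-C4 (gamma), and the variable genes Tcrg-V6 and Trdv4. They were taken by their symbols from a table of 28692 genes, which held 267 T cell receptor genes in all, so 258 others were not among the 9. Raw UMIs, each standing for 1 captured RNA molecule, were summed per deposited cluster and library. Both libraries came from adult wild-type C57BL/6 mice and held CD45+ leukocytes that intravenous labelling marked as resident in adipose tissue. One library was from mice on chow, the control, and the other from mice on a ketogenic diet (high in fat and very low in carbohydrate), in a study of 1 week of feeding. How many mice gave each library is not stated in the labels, and no allele, transgene or other agent is named for either group. With 1 library per diet there was no replicate check and no test between diets. All intervals are exact 95% intervals that cover counting error only.

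A T cell carries either an alpha-beta or a gamma-delta receptor, each a pair of chains whose variable part is cut and joined from gene segments during development and whose constant part is fixed. The delta locus lies inside the alpha locus, so that rearrangement of the alpha locus deletes the delta genes of that chromosome. Trbc1 and Trbc2 are alternative constant genes of the beta chain, and a rearranged beta locus uses 1 of them. Adipose tissue is known for resident gamma-delta T cells that make IL-17, many of which pair the variable chains encoded by Tcrg-V6 and Trdv4 and use the constant gene Tcrg-C1. Natural killer (NK) cells and group 2 innate lymphoid cells (ILC2) carry no T cell receptor on their surface but are known to transcribe parts of the receptor loci.

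In the GRCm38 annotation, Trac (ENSMUSG00000076928) lies at chr14:54220521-54224206 and Trdc (ENSMUSG00000104876) at chr14:54142851-54148868, both on the plus strand. Trdv4 (ENSMUSG00000076867) lies before them on the same strand, at chr14:54074905-54075515. Trbc1 (ENSMUSG00000076490, chr6:41538218-41539881) and Trbc2 (ENSMUSG00000076498, chr6:41546730-41548352) follow each other on the plus strand of chromosome 6. The gamma genes are on chromosome 13: Tcrg-V6 (ENSMUSG00000076746) at chr13:19190356-19190929, Tcrg-C1 (ENSMUSG00000076749) at chr13:19214103-19217024 and Tcrg-C4 (ENSMUSG00000076757) at chr13:19344558-19352756, all plus strand. Tcrg-C2 (ENSMUSG00000076752), at chr13:19304649-19307551, is the only one of the 9 on the minus strand.

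How far reads can tell these genes apart limits every split between them, so the first 120 coding bases of the near-identical constant genes are shown, read from the annotated GRCm38 transcripts and written 5′ to 3′. Capitals mark bases that differ from Tcrg-C1.
Tcrg-C1: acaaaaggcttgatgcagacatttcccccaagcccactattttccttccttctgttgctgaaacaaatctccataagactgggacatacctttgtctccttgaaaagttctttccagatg
Tcrg-C2: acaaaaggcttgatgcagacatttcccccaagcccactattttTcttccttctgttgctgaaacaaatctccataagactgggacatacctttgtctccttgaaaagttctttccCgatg
Tcrg-C4: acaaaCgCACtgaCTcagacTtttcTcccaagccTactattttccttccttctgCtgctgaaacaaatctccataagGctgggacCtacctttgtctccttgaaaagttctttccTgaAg

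Tcrg-C2 differed from Tcrg-C1 at 2 of these 120 bases and Tcrg-C4 at 14. Over the aligned coding sequence the identity of Tcrg-C1 was 97.4% with Tcrg-C2 and 76.9% with Tcrg-C4. After the coding part it was 94.1% and 54.5%. The split between Tcrg-C1 and Tcrg-C2 is therefore uncertain, since how reads shared by both were counted is not given in the sources used here. The same start of the beta constant genes, which carries 0 differences between Trbc1 and Trbc2, is shown once.
Trbc1: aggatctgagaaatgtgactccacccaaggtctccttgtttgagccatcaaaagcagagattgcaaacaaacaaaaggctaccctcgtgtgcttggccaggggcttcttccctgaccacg

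Trbc1 and Trbc2 were 95.6% identical over the coding part but 52.1% after it. Trac and Trdc shared 51.8% of aligned coding bases, so a read of 1 is not readily taken for the other.

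The chow library held 4545 cells and the ketogenic-diet library 5614, of which 4458 and 5559 were in the deposited table of 13 clusters. Their median depths were 3550 and 3467 UMIs per cell, but in each of lymphoid clusters 0, 1, 2, 4, 7 and 11 the ketogenic-diet cells were deeper (medians of 2993 to 3703 UMIs, against 2297 to 3052), which bears on every unthinned share of cells. A total of 41 barcodes occurred in both libraries. Of the 51033 UMIs on all T cell receptor genes over all cells, 49950 were on the 8 constant genes and 1083 on the 175 variable genes, and the 84 diversity and joining segments held 0. The 9 genes took 0.0517% of UMIs in the chow library and 0.152% in the ketogenic-diet library. Clusters were named from marker genes that included no T cell receptor gene. Cluster 0 was ILC2-like (11 of 11 markers raised at least 2-fold), with the red-cell gene Hba-a1 also among its leading genes, and cluster 1 was NK cell-like (10 of 10). Cluster 2 was T cell-like with CD8 markers raised, but it also held Cd4, so it was not of CD8 cells alone. Cd4 had 77 UMIs there on chow and 319 on the ketogenic diet, beside 51 and 335 of Cd8a and 140 and 749 of Cd8b1. Cluster 4 was T cell-like with the NK receptor genes Klra1 and Klra7 in the lead. Cluster 7 was regulatory T cell-like and cluster 11 IL-17-type T cell-like (13 of 13). Clusters 5 and 6 were conventional dendritic cell-like, 12 mature dendritic cell-like, 9 plasma cell-like and 10 cycling. In cluster 9 the B cell markers were raised as well (8 of 8). Clusters 3 and 8 were led by monocyte and macrophage genes and are given by number.

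Trac, the only constant gene of the alpha chain, was highest in cluster 2, at 547 counts per 1000000 UMIs (CPM, interval 490 to 608) on chow and 911 (876 to 947) on the ketogenic diet. Cluster 7 followed at 371 and 636 CPM, cluster 4 at 329 and 513, and cluster 11 at 190 and 333. The intervals of clusters 7 and 4 overlapped on chow, and those of clusters 11 and 10 overlapped on the ketogenic diet. In clusters 0 and 1 Trac lay between 24.3 and 47.3 CPM over both libraries, below every T cell-like cluster. The ketogenic-diet levels of clusters 0 and 1 fell further when 10% of the cluster sum was subtracted as free RNA. Trbc2 was the most abundant of the 9 genes by UMIs, with 4582 UMIs on chow and 16687 on the ketogenic diet. It reached 1319 CPM in clusters 2 and 4 on chow, and 1869 and 1705 CPM there on the ketogenic diet. Trbc1 had its highest level in cluster 2, at 664 and 973 CPM. On chow its interval there (602 to 732) overlapped that of cluster 4 (563 CPM, 510 to 619).

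The innate lymphocyte clusters held beta constant transcripts with little Trac. NK cell-like cluster 1 had 427 CPM of Trbc1 and 358 of Trbc2 on chow, and 516 and 440 on the ketogenic diet. Trbc1 was detected in 59.8% and 73.5% of its cells, at median depths of 2297 and 3147 UMIs, and the T cell receptor partner gene Cd3e in 3.18% and 5.56%. ILC2-like cluster 0 had 189 and 275 CPM of Trbc1 and 420 and 554 CPM of Trbc2. Trac made up 3.16% (2.32 to 4.19) of the summed Trac, Trbc1 and Trbc2 UMIs in cluster 1 on chow and 4.71% (4.04 to 5.46) on the ketogenic diet. In cluster 0 it made up 4.67% (3.67 to 5.86) and 2.85% (2.34 to 3.44). The same share was 21.6% and 24.3% in cluster 2, 24.4% in both libraries in cluster 7, 14.9% and 17.0% in cluster 4 and 14.2% and 18.5% in cluster 11. The lowest interval bound of a T cell-like cluster, 10.2%, thus lay above the highest bound of either innate cluster, 5.86%.

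**Figure D1:**
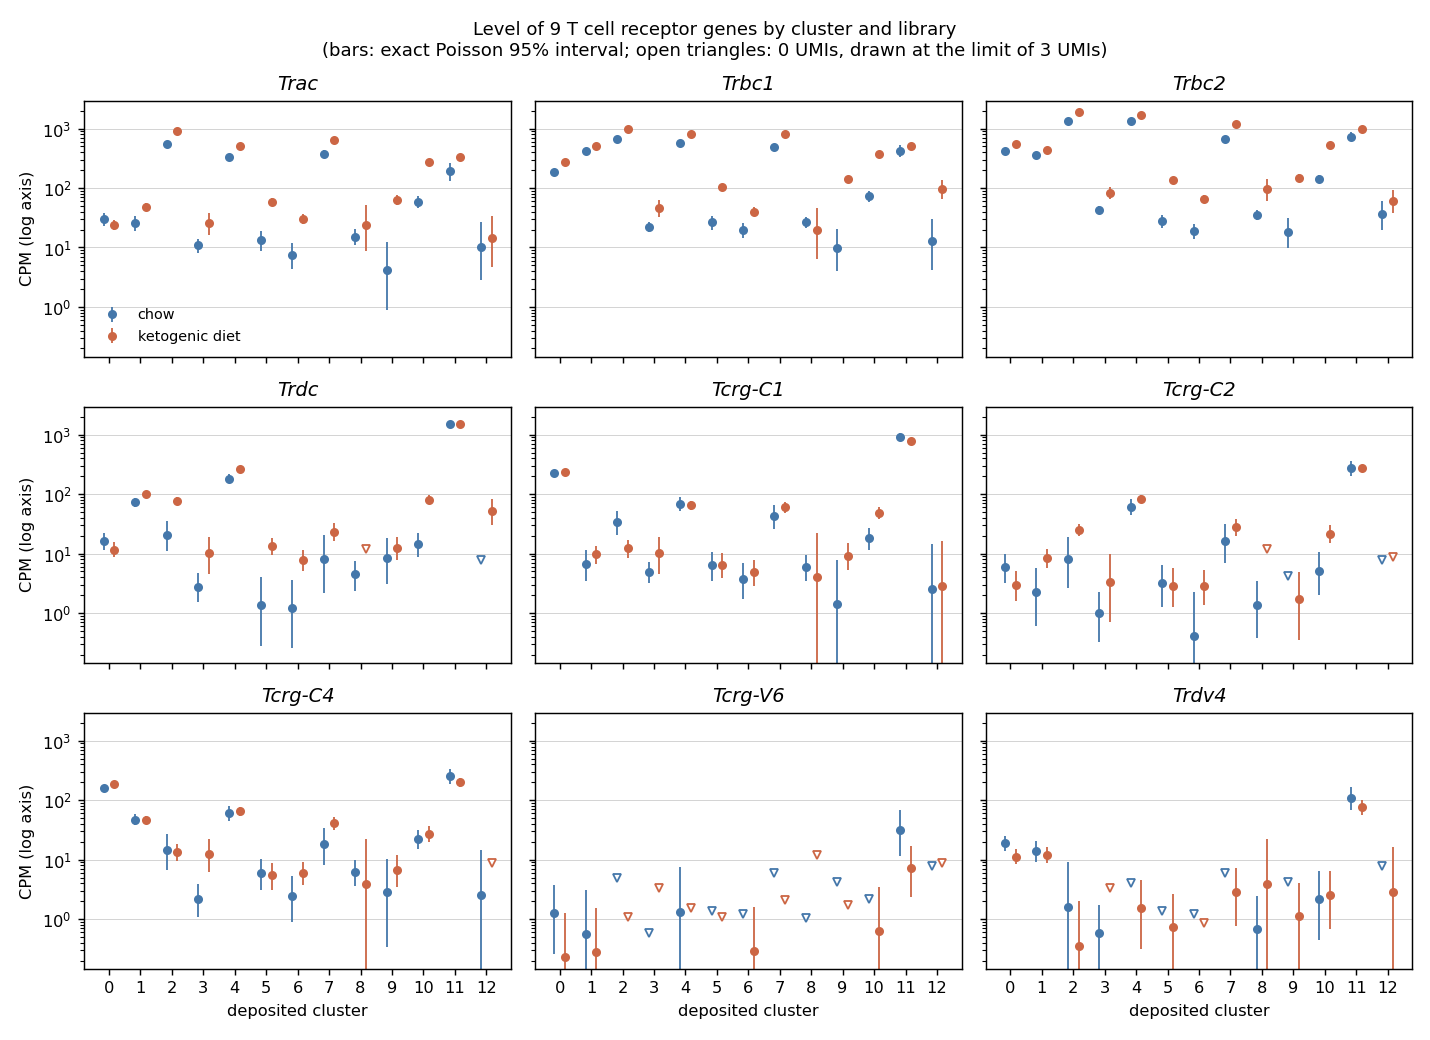
Level of each of the 9 genes in CPM (log axis) in the 13 deposited clusters, with 1 point per library and exact Poisson 95% intervals; open triangles mark 0 UMIs at the level of 3 UMIs. Trac is highest in cluster 2 (547 CPM on chow, 911 on the ketogenic diet), and Trdc in cluster 11 (1512 and 1488).

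Trdc, the constant gene of the delta chain, was highest in the IL-17-type T cell-like cluster 11, at 1512 CPM (1342 to 1697) on chow and 1488 (1398 to 1582) on the ketogenic diet. Cluster 4 came next at 183 and 269 CPM followed by NK cell-like cluster 1 at 73.4 and 102 CPM. The level in cluster 10 on the ketogenic diet, 80.3 CPM, overlapped that of cluster 1 in its interval. Of cluster 11 cells, 76.3% and 56.5% had a Trdc UMI, with 6.38 and 10.6 UMIs per positive cell. In cluster 1 the shares were 13.3% and 20.1%, with 1.38 and 1.72 UMIs per positive cell. Tcrg-C1 was also highest in cluster 11, at 911 and 783 CPM, and Tcrg-C2 reached 274 and 270 CPM there.

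ILC2-like cluster 0 held gamma constant transcripts almost without Trdc. Tcrg-C1 was at 225 CPM (206 to 244) on chow and 238 (224 to 253) on the ketogenic diet, second to cluster 11, and detected in 33.8% and 38.7% of cells. Tcrg-C4 was at 162 and 185 CPM there, and on the ketogenic diet its interval overlapped that of cluster 11 (201 CPM). Trdc took 3.91% (2.78 to 5.33) and 2.67% (2.0 to 3.5) of the summed Trdc and Tcrg-C UMIs in cluster 0. In cluster 11 it took 51.2% (46.9 to 55.4) and 54.3% (52.0 to 56.6).

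The 3 gamma constant genes divided differently among the lymphoid clusters. Their annotated transcripts are 914 to 985 bases long. Tcrg-C4, the copy that sequence sets apart best, made up 84.2% (75.6 to 90.7) of Tcrg-C UMIs in NK cell-like cluster 1 on chow and 72.3% (66.1 to 78.0) on the ketogenic diet. It made up 17.9% (13.5 to 22.9) and 16.0% (13.6 to 18.7) in cluster 11, and 41.3% and 43.4% in cluster 0. Tcrg-C2 was 1.50% and 0.700% of Tcrg-C UMIs in cluster 0, against 31.9% and 38.7% in cluster 4. Cluster 0 carried 534 and 1038 Tcrg-C1 UMIs and 14 and 13 of Tcrg-C2. How reads were assigned between these copies was not tested.

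The variable genes gave few UMIs. Trdv4, the variable gene of the delta chain paired with the Tcrg-V6 chain, had 100 UMIs on chow and 163 on the ketogenic diet. Its level was 111 CPM (68.5 to 169) and 76.2 (56.9 to 99.9) in cluster 11. It was also found in ILC2-like cluster 0, at 18.9 and 11.2 CPM, and in NK cell-like cluster 1, at 13.9 and 12.2 CPM. Of the cells with a Trdv4 UMI in cluster 11, all 16 on chow and all 33 on the ketogenic diet also had Trdc, Tcrg-C1 and at least 1 of Cd3e, Cd3d and Cd3g. In cluster 0, 3 of 44 and 1 of 48 such cells had Trdc, while 24 and 26 had Tcrg-C1. In cluster 1, 0 of 23 and 0 of 42 had Tcrg-C1. Over all cells of cluster 0, Trdc was in 1.76% and 2.60% and Tcrg-C1 in 33.8% and 38.7%, and over all cells of cluster 1 Tcrg-C1 was in 1.24% and 2.17%, which are the base shares beside those counts.

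Tcrg-V6 was near the limit of detection, with 11 UMIs on chow and 9 on the ketogenic diet. In cluster 11 it had 6 and 5 UMIs, or 31.6 CPM (11.6 to 68.8) and 7.33 CPM (2.38 to 17.1), in 4 and 5 cells, too few for the 2-fold call. All 9 of these cells had Trdc and Tcrg-C1, and 3 of 4 and 2 of 5 had Trdv4. The share of cells that carry a Tcrg-V6 chain cannot be read from such counts.

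Dendritic cells, monocytes, macrophages and plasma cells should lack both kinds of receptor, and the Trac found in their clusters had no single level. Trac stood at 13.1 CPM in cluster 5 and 7.38 in cluster 6 on chow, and at 57.5 and 30.7 on the ketogenic diet. The ratio of the diets was 4.38 (2.93 to 6.75) in cluster 5 and 4.16 (2.51 to 7.29) in cluster 6. In mature dendritic cell-like cluster 12 Trac stood at 10.3 and 14.5 CPM, a ratio of 1.41 (0.303 to 7.09) on 4 and 5 UMIs. Clusters 3 and 8, led by monocyte and macrophage genes, had 25.8 and 23.8 CPM on the ketogenic diet and ratios of 2.38 (1.39 to 3.93) and 1.58 (0.549 to 3.71). Plasma cell-like cluster 9 went from 4.25 to 62.6 CPM, a ratio of 14.7 (4.91 to 72.5) with 3 UMIs on chow. Of all genes in cluster 9, 17.2% were past 2-fold higher, with a median log2 ratio of 0.50. In both clusters 5 and 6 all 3 of the genes with at least 50 UMIs, Trac, Trbc1 and Trbc2, were past 2-fold higher, against 3.50% of all genes past 2-fold in either direction in cluster 5 and 2.56% in cluster 6. T cell-like clusters 2, 4, 7 and 11 together made up 16.2% of clustered cells on chow and 33.0% on the ketogenic diet. The part of free RNA or of doublets in these levels was not tested. The Trac share of Trac, Trbc1 and Trbc2 UMIs was 16.2% to 22.5% in clusters 5 and 6, and in cluster 12 it was 17.4% (4.95 to 38.8) on chow and 8.47% (2.81 to 18.7) on the ketogenic diet.

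Within the T cell-like clusters the alpha and beta constant genes were higher per UMI on the ketogenic diet, each by less than 2-fold. The ratio of Trac, ketogenic diet over chow, was 1.67 (1.49 to 1.87) in cluster 2, 1.56 (1.35 to 1.80) in cluster 4, 1.71 (1.46 to 2.02) in cluster 7 and 1.75 (1.23 to 2.57) in cluster 11. Trbc2 stood at ratios of 1.42, 1.29, 1.77 and 1.33 in the same order, and the interval of each lay above 1. Trbc1 stood at 1.46, 1.43, 1.63 and 1.20, the last with an interval of 0.941 to 1.56. The invariant chains that signal for both receptor types did not all have the same ratio. Cd3g stood at 1.38 (1.26 to 1.52) in cluster 2, 1.29 (1.18 to 1.41) in cluster 4, 1.35 (1.19 to 1.54) in cluster 7 and 0.993 (0.874 to 1.13) in cluster 11. Cd3e stood at 1.35, 1.27, 1.18 and 1.03 in that order, and Cd3d at 1.07, 0.952, 1.07 and 0.941. The innate clusters also had ratios above 1. In cluster 0 Trbc1 stood at 1.46 (1.31 to 1.63) and Trbc2 at 1.32 (1.22 to 1.42), and in cluster 1 Trac stood at 1.85 (1.33 to 2.62), Trbc1 at 1.21 (1.11 to 1.32) and Trbc2 at 1.23 (1.12 to 1.35). Trac in cluster 0 had a ratio of 0.815 (0.597 to 1.12).

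Counted by the 2-fold threshold, cluster 11 had 0 of 8 measured genes past it, with 4.41% of all genes past it. Trdc had a ratio of 0.984 (0.863 to 1.13) there, Tcrg-C1 of 0.859 (0.722 to 1.03), Tcrg-C2 of 0.985 (0.720 to 1.37), Tcrg-C4 of 0.778 (0.558 to 1.10) and Trdv4 of 0.689 (0.408 to 1.20). Tcrg-V6, under the minimum with 6 and 5 UMIs, had a ratio of 0.232 (0.0560 to 0.912), but 3 of the 6 chow UMIs were in 1 cell, and the interval treats UMIs as independent. The ratios of the 6 gamma-delta genes were thus at or below 1, with intervals that include 1 for the 5 other than Tcrg-V6, while Trac and Trbc2 lay above 1. Cluster 4 had 0 of 7 past 2-fold (3.42% of all genes), with Trdc at 1.47 (1.22 to 1.79). Innate clusters 0 and 1 had 0 of 7 (3.24% of all genes) and 0 of 6 (3.05%). In cluster 0 Trdv4 went from 18.9 to 11.2 CPM, a level 1.68-fold lower (1.10 to 2.58).

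Cluster 2 had 3 of 6 genes past 2-fold, with 5.40% of all genes past it. Trdc went from 20.9 to 77.8 CPM, a ratio of 3.72 (2.13 to 7.10), on 13 and 217 UMIs. Tcrg-C2 went from 8.04 to 25.1 CPM, a ratio of 3.12 (1.28 to 9.91), on 5 and 70 UMIs. Tcrg-C1 was lower, at 33.8 and 12.2 CPM, by 2.77-fold (1.53 to 4.91), on 21 and 34 UMIs. Of these 3 calls, 2 rest on the uncertain split between Tcrg-C1 and Tcrg-C2, whose sum, taken after the values were seen, was 41.8 and 37.3 CPM, a ratio of 0.892 (0.576 to 1.43). In cluster 7, 1 of 5 was past 2-fold (4.78% of all genes): Tcrg-C4, at 2.27 (1.12 to 5.21), on 9 and 58 UMIs. Of those 9 chow UMIs, 44.4% were in 1 cell. In cycling cluster 10, which mixes cell types, 5 of 6 were past it (8.62% of all genes), with Trac at 4.58 (3.60 to 5.88) and Trdc at 5.53 (3.44 to 9.36). There the T cell share of the cluster and the level per cell cannot be told apart.

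**Figure D2:**
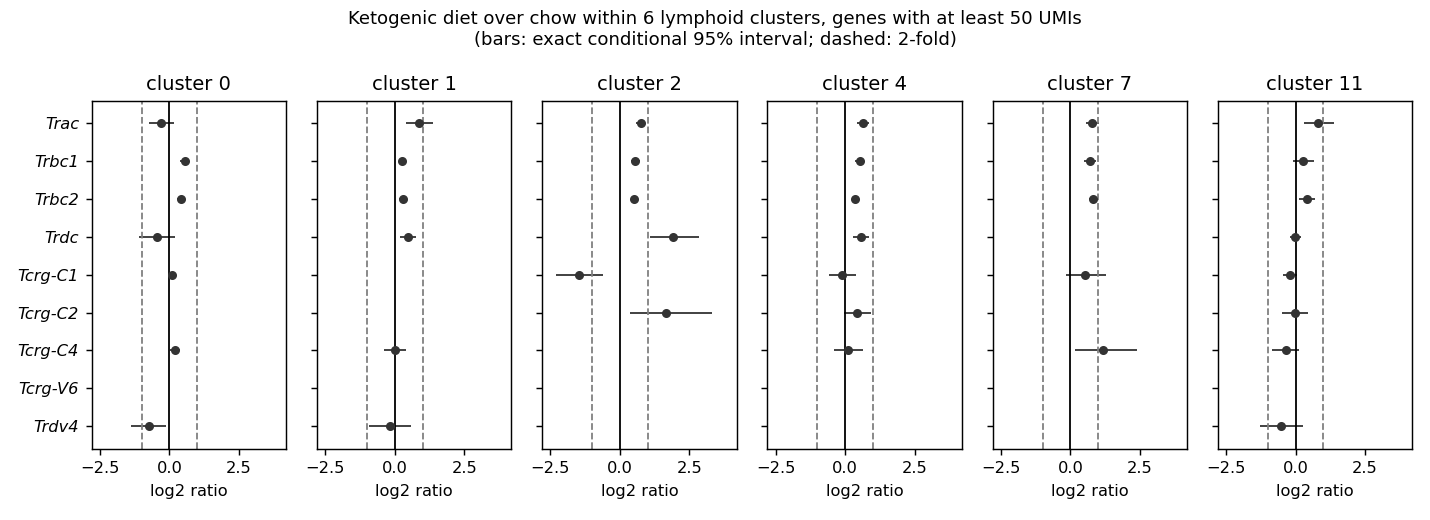
Difference between libraries as log2(ketogenic-diet CPM / chow CPM) for the genes with at least 50 UMIs in 6 lymphoid clusters, with exact conditional 95% intervals; dashed lines mark 2-fold. Trdc and Tcrg-C2 lie past the line on the right and Tcrg-C1 on the left in cluster 2, and 0 of 8 genes lie past either line in cluster 11.

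Each cell was then classed by the chains it showed: alpha-beta for a UMI of Trac, Trbc1 or Trbc2, and gamma-delta for one of Trdc or a Tcrg-C gene. Every cell was thinned to 1000 UMIs, by its expected value, so that depth did not set the classes. Cells with both kinds of chain were 5.52% (4.87 to 6.23) of clustered cells on chow and 10.4% (9.64 to 11.3) on the ketogenic diet, a ratio of 1.89 (1.63 to 2.20). Without thinning they were 16.0% and 29.5%. Cells with alpha-beta chains only were 27.6% and 47.1%, a ratio of 1.71 (1.60 to 1.83). Cells with gamma-delta chains only were 5.43% and 6.08%, a ratio of 1.12 (0.947 to 1.33). Without thinning the last class went from 5.70% to 3.96%, a ratio of 0.695, so its direction depended on depth. These ratios over all cells were taken across libraries of different makeup: clusters 3 and 8 were 19.3% and 8.12% of clustered chow cells but 2.61% and 0.845% of those on the ketogenic diet. Within clusters the ratio of cells with both kinds was 1.30 (1.03 to 1.66) in cluster 0, 1.30 (0.883 to 1.93) in cluster 1, 1.24 (0.669 to 2.47) in cluster 2, 1.24 (0.869 to 1.80) in cluster 4, 1.79 (0.703 to 5.39) in cluster 7, 3.07 (0.791 to 17.4) in cluster 10 and 1.03 (0.669 to 1.63) in cluster 11. That of alpha-beta-only cells was 1.19 (1.02 to 1.38) in cluster 0 and 1.13, 1.08, 1.03 and 1.09 in clusters 1, 2, 4 and 7, with intervals that include 1 in those 4, and 1.52 (0.692 to 3.79) in cluster 11. It was 2.61 (1.60 to 4.39) in cycling cluster 10 and 2.69 (1.79 to 4.12) in dendritic clusters 5, 6 and 12 together.

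Most cells with both kinds of chain were not in a T cell-like cluster. On chow 43.0% of them were in ILC2-like cluster 0 and 17.1% in NK cell-like cluster 1, and on the ketogenic diet 36.5% and 13.8%. Cluster 11 held 11.7% and 14.8% of them, and cluster 4 held 18.3% and 18.5%. Within cluster 11, 49.2% (35.9 to 62.5) and 50.6% (42.8 to 58.3) of cells showed both kinds, and without thinning 83.1% and 78.8%. The beta genes accounted for most of this overlap: with Trac as the only alpha-beta gene the share in cluster 11 on the ketogenic diet was 11.8%. In dendritic clusters 5, 6 and 12 together the thinned share with both was 0.141% and 0.525%, and without thinning it was 2.67% and 6.43%.

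The pair that cannot come from 1 chromosome after alpha rearrangement, Trac and Trdc, was counted in unthinned cells beside the product of the shares of cells with each gene, as a description. In cluster 4 on the ketogenic diet 354 of 515 cells had Trac and 108 had Trdc, and 26 had both where the product gave 74.2, a ratio of 0.350 (0.231 to 0.507). On chow there were 8 such cells against 22.4, a ratio of 0.357 (0.155 to 0.693). In cluster 11 there were 19 against 40.7 on the ketogenic diet, a ratio of 0.467 (0.287 to 0.707), and 9 against 13.7 on chow, a ratio of 0.656 (0.310 to 1.16). In NK cell-like cluster 1 the ratios were 1.02 (0.331 to 2.37) on chow and 0.935 (0.601 to 1.38) on the ketogenic diet. Cells with both in cluster 4 on the ketogenic diet had a median of 5510 UMIs, against 3468 in cells with Trac only and 2988 in cells with Trdc only. With the deepest 5% of cells left out, the ratio there was 0.257.

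Trdc and Tcrg-C1, which belong to 1 receptor, were above the product in cluster 4. There Trdc and Tcrg-C1 were seen together in 16 cells on chow and 46 on the ketogenic diet against products of 5.72 and 18.2. These are ratios of 2.79 (1.62 to 4.45) and 2.52 (1.87 to 3.31). For the alternative beta genes this measure says little, since Trbc2 was in most cells of the T cell-like clusters. In cluster 2 on the ketogenic diet 474 of 821 cells had Trbc1 and 776 had Trbc2, which allows only 429 to 474 cells with both, and 436 had both. In cluster 4 the counts allowed 268 to 302 and 279 had both. In NK cell-like cluster 1 they allowed 284 to 565, and 408 had both, where the product gave 416.

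**Figure D3:**
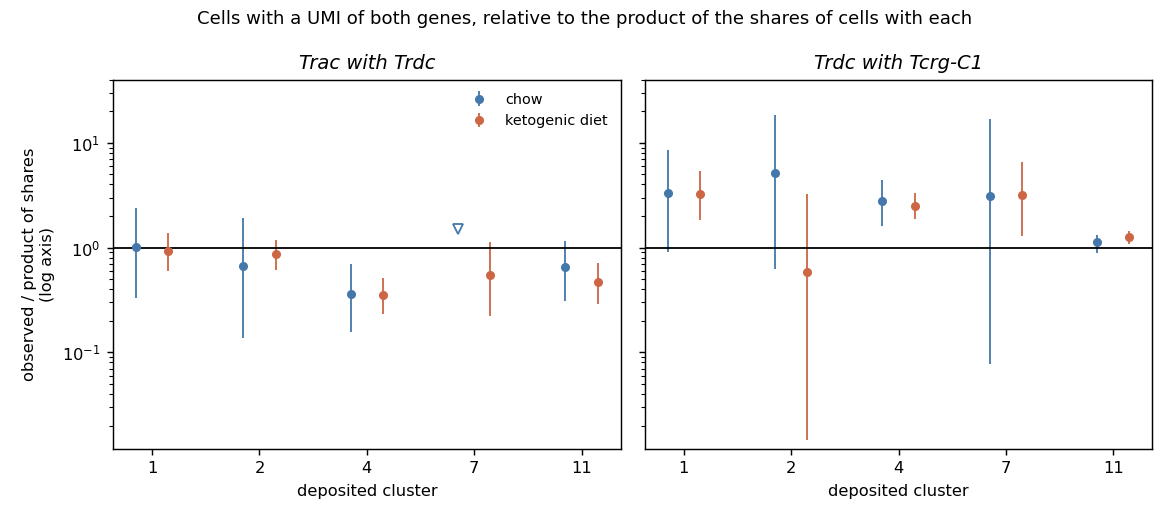
Cells with a UMI of both genes of a pair, divided by the product of the shares of cells with each (log axis), in 5 clusters and both libraries with exact binomial 95% intervals; the open triangle is the upper bound of a count of 0. Trac with Trdc lies at 0.357 and 0.350 in cluster 4, and Trdc with Tcrg-C1 at 2.79 and 2.52.

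Cluster 11, IL-17-type by its markers, was a mixture by these chains. On chow 9 cells had Trac without Trdc, 36 had Trdc without Trac, 9 had both and 5 neither. On the ketogenic diet the counts were 53, 77, 19 and 21. After thinning, cells with Trac only were 11.9% (4.91 to 22.9) of the cluster on chow and 18.2% (12.7 to 24.9) on the ketogenic diet, and cells with Trdc only 61.0% (47.4 to 73.5) and 45.9% (38.2 to 53.7). The intervals overlapped for both classes.

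The cells with Trdc only and those with Trac only differed in other genes, in cells of the same cluster and library. Cd163l1, a scavenger receptor gene known from IL-17-type gamma-delta T cells, was at 838 CPM (676 to 1028) on chow and 1145 (1025 to 1275) on the ketogenic diet in cells with Trdc only. In cells with Trac only it had 0 UMIs in both libraries, which allows up to 95.7 and 12.9 CPM. Cells with both genes had 647 CPM (390 to 1011) and 1048 CPM (826 to 1312). Blk, a kinase gene of the same program, was 3.79-fold (2.11 to 7.32) higher in cells with Trdc only on the ketogenic diet, and Trdv4 had 44 UMIs in those cells and 0 in cells with Trac only. Tcrg-C1 was 3.40-fold (1.84 to 6.98) higher in cells with Trdc only on chow and 4.94-fold (3.72 to 6.68) on the ketogenic diet. Tcrg-C4, the best separated copy, was 3.24-fold (1.02 to 16.5) and 2.21-fold (1.40 to 3.57) higher. The ratio of Tcrg-C2 was 2.86 (1.03 to 11) on chow, with 4 UMIs in cells with Trac only, and 1.24 (0.893 to 1.73) on the ketogenic diet.

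A few other genes were higher in the cells with Trac only on the ketogenic diet. Cd28, the costimulatory receptor, had 45 UMIs in them and 5 in cells with Trdc only, which is 11.2-fold (4.45 to 36.1) higher per UMI. Lck, the kinase that acts first at the receptor, had 66 and 17 UMIs, 4.82-fold (2.80 to 8.77) higher. Ccr6, a chemokine receptor gene and 1 of the IL-17-type markers, had 14 UMIs against 1, and Cd27, from the list of gamma-delta T cell programs, had 25 against 7. Of the receptor's signalling chains, Cd3g was 1.31-fold (1.14 to 1.50) and Cd247 1.97-fold (1.28 to 3.10) higher in cells with Trdc only, as was the adaptor gene Lat at 1.23-fold (1.01 to 1.52), while the ratio for Cd3d was 1.10 (0.906 to 1.34). Over the whole cluster, Lck and Cd28 were the 2 of 12 measured genes of receptor signalling past 2-fold higher on the ketogenic diet, at ratios of 3.44 (1.68 to 8.20) and 3.12 (1.26 to 9.97). The part of the cells with Trac only in those ratios was not tested. Cd3e was at 638 CPM in cells with Trac only and 732 CPM in cells with Trdc only, a ratio of 1.15 (0.926 to 1.43).

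**Figure D4:**
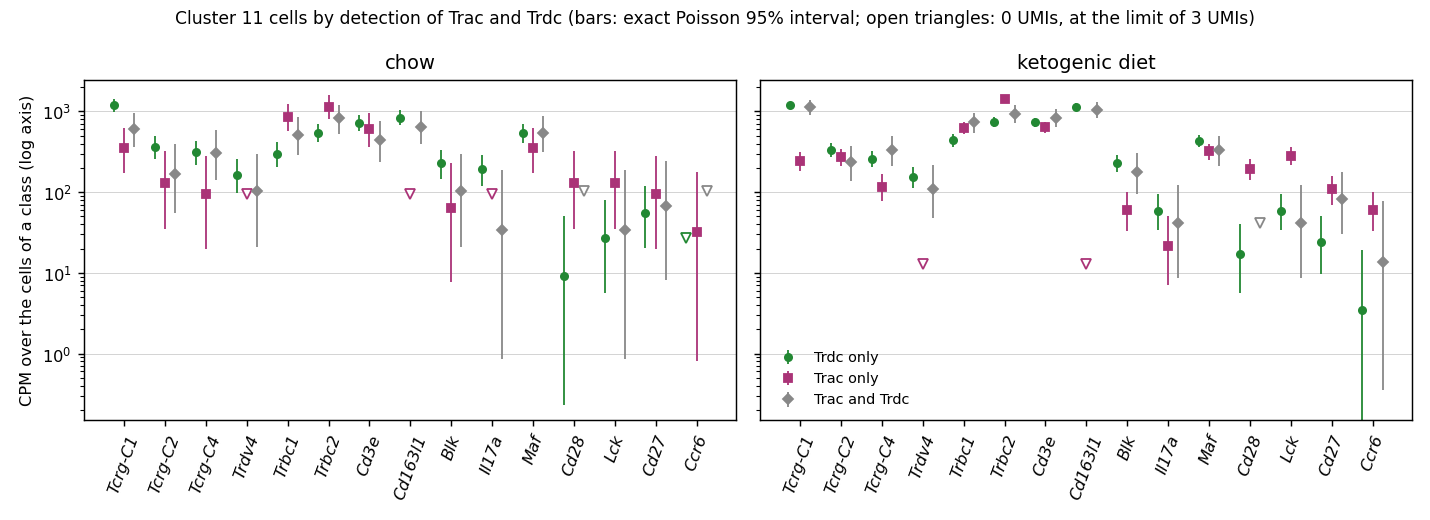
Level in CPM (log axis) of 15 genes in cluster 11 cells with Trdc only, with Trac only and with both, per library, with exact Poisson 95% intervals; open triangles mark 0 UMIs at the level of 3 UMIs. Cd163l1 is at 838 and 1145 CPM in cells with Trdc only and at 0 UMIs in cells with Trac only.

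In cluster 2 the Trdc transcripts of the ketogenic-diet library came mostly from cells that also had Trac. Of 47 cells with Trdc, 36 had Trac, where the product of the shares gave 41.6. These 36 cells, chosen for having both genes, held 149 Trdc UMIs at 1008 CPM (853 to 1184), and 17 of them had at least 3. A Tcrg-C UMI was found in 1 of the 36, in 7 of the 11 cells with Trdc but no Trac, and in 66 of the 690 cells with Trac only. Cd8b1, the CD8 beta chain, was at 311 CPM (228 to 415) in the 36 cells and 250 (230 to 271) in cells with Trac only. The chow library had 3 such cells, too few to compare.

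Trbc1 and Trbc2 have coding parts of 518 bases each, and their split was examined over all UMIs and per cell. Over all UMIs, Trbc1 made up 54.4% (51.7 to 57.0) of both in NK cell-like cluster 1 on chow and 54.0% (52.3 to 55.7) on the ketogenic diet. It made up 33.5% and 34.2% in cluster 2, 29.9% and 32.0% in cluster 4, 42.3% and 40.3% in cluster 7, 36.4% and 34.2% in cluster 11 and 31.0% and 33.1% in cluster 0. Cells with at least 8 UMIs of the pair, a minimum chosen after the values were seen, were then compared on the ketogenic diet. Those in which Trbc1 took at most 10% or at least 90% were 41.2% (36.5 to 45.9) of 442 cells in cluster 2 and 46.3% (40.3 to 52.3) of 281 in cluster 4. They were 15.2% (8.10 to 25.0) of 79 cells in NK cell-like cluster 1 and 15.4% (6.88 to 28.1) of 52 in ILC2-like cluster 0. Cluster 11 had 36.7% (23.4 to 51.7) of 49 cells, whose interval overlapped those of clusters 0 and 1, and cluster 7 had 40.1% (32.1 to 48.5) of 147. The median number of such UMIs was 12 in clusters 2 and 4, 10 in cluster 1 and 9 in cluster 0.

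The outer cells were uneven, since 160 of the 182 in cluster 2 were at the Trbc2 end and 22 at the Trbc1 end. In cluster 7 the ends were 39 and 20 of 147 cells. On chow the same share was 36.5% (23.6 to 51.0) of 52 cells in cluster 2 and 48.3% (35.2 to 61.6) of 60 in cluster 4, and clusters 0, 1, 7 and 11 had 6, 12, 13 and 7 cells, too few to compare. At a minimum of 5 UMIs on chow, 61 of 122 cells in cluster 2 were outer cells, with an interval of 40.8% to 59.2%. The share was 50.7% (42.0 to 59.4) of 136 cells in cluster 4, 32.6% (19.5 to 48.0) of 46 in cluster 7 and 11.1% (1.38 to 34.7) of 18 in cluster 11. It was 28.8% (17.8 to 42.1) of 59 cells in cluster 0 and 17.9% (10.2 to 28.3) of 78 in cluster 1. Clusters 2, 4 and 7 thus lay above clusters 0 and 1 in their intervals on the ketogenic diet at 8 UMIs, and clusters 2 and 4 above cluster 1 on chow at 5 UMIs. Cluster 11 overlapped clusters 0 and 1 in both of these comparisons.

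**Figure D5:**
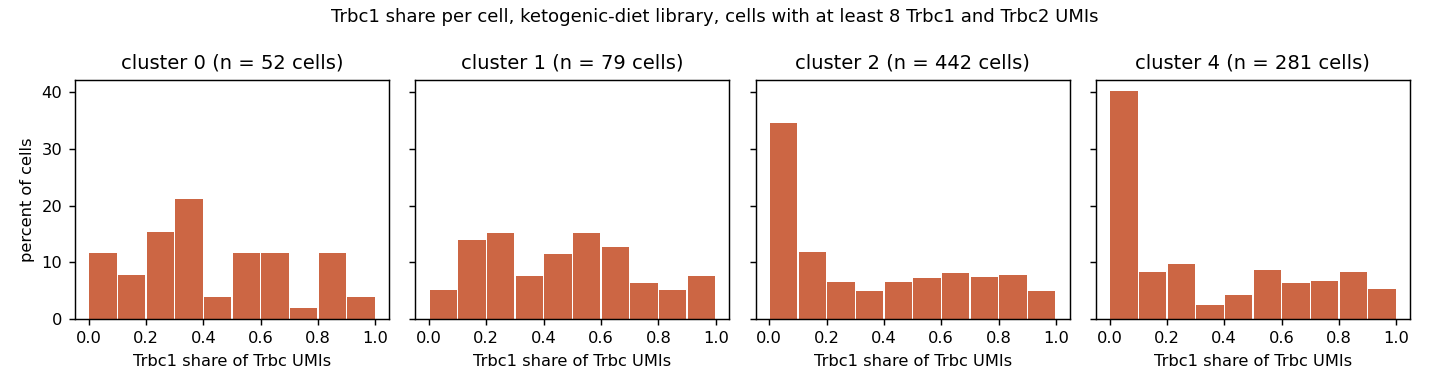
Percent of cells by the Trbc1 share of their Trbc1 and Trbc2 UMIs, in steps of 10%, for cells with at least 8 such UMIs in the ketogenic-diet library. The leftmost bar, below 10%, holds 153 of 442 cells in cluster 2 and 113 of 281 in cluster 4, against 6 of 52 in ILC2-like cluster 0 and 4 of 79 in NK cell-like cluster 1.

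Of the T cell receptor genes outside the 9, only 5 reached 20 UMIs, all of them variable genes. Trdv2-2, a delta variable gene, had 84 and 137 UMIs, of which 68 and 90 were in NK cell-like cluster 1. There 7 of 63 and 15 of 88 of its cells had Trdc, beside 96 of 724 and 213 of 1062 cells of the whole cluster. Trgv2, a gamma variable gene on the minus strand like Tcrg-C2, had 24 UMIs in 18 cells of cluster 11 on the ketogenic diet, and 16 of the 18 had Tcrg-C2, against 73 of all 170 cells. Trav11, the alpha variable gene of the invariant receptor of NKT cells, had 2 UMIs on chow and 27 on the ketogenic diet, a ratio of 11.1 (2.80 to 96.7) over the whole libraries. Over the same libraries Trac had a ratio of 4.11 (3.86 to 4.38), so the interval of Trav11 includes that of Trac. Its 18 cells on the ketogenic diet all had a Cd3 gene and 16 had Trac. Trbv12-2 had 5 and 25 UMIs, and Trdv1 had 2 and 20.

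Likeness of pattern was measured as Pearson's r of log2(CPM + 20) over the 26 cluster and library sums, among 9110 genes with at least 200 UMIs. The sums of a library share its depth and free RNA, so r is a description. Trac was most like Cd3d and Cd3e (r = 0.96 for each), then Cd40lg, Cd3g and Tnfsf8. Trbc1 was most like Skap1 (0.96), Rnf125, Thy1, Sept1 and Gimap3, and Trbc2 most like Thy1 (0.96), Skap1, Hcst, Saraf and Rnf125. Trdc was most like Prrt1 (0.93), Il12rb1, Xpo4, Cecr5 and Slc16a6, and Tcrg-C2 also most like Prrt1 (0.91), followed by Adgrg5, Ly6g5b, Slc16a6 and Xpo4. Tcrg-C1 was most like Bik (0.94), Podnl1, 5430421N21Rik, F2r and Cxcr6, and Tcrg-C4 most like Nedd4 (0.90), Ikzf3, Sptssa, F2r and Tasp1. Trdv4 was most like Il22 (0.94), Ffar2, 5430421N21Rik, Acyp2 and Igf1r, and Tcrg-V6 most like Il22 (0.88), Cd163l1, Lta, Igf1r and Clock. Tcrg-V6 had only 20 UMIs over these sums, 11 of them in cluster 11, so its r mostly reflects that cluster.

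Among the 9 genes, Trbc1 and Trbc2 had r = 0.97, Trdc and Tcrg-C2 0.93, and Tcrg-C1 and Tcrg-C4 0.93. Trac and Trdc had 0.54. Trdc was closer to Tcrg-C2 than to Tcrg-C1 (0.73).

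Other genes of the receptor pathway were mostly within 2-fold between diets. Of the list of the receptor complex and its first signalling steps, 0 of 19 measured genes in cluster 2 were past it (5.40% of all genes), 0 of 18 in cluster 4 (3.42%), 0 of 18 in cluster 7 (4.78%) and 2 of 12 in cluster 11 (4.41%), which were Lck and Cd28. Counts of 0 on lists this short are near those shares. The median log2 ratio of this list was 0.35 in cluster 2, 0.19 in cluster 4, 0.10 in cluster 7 and 0.01 in cluster 11, beside 0.09, 0.06, 0.08 and 0.06 over all genes. Of the list for receptor rearrangement and the pre-T cell receptor, only Bcl11b, Tcf7, Lef1 and Tox were measured, Lef1 not in clusters 7 and 11. Among these 3 or 4 genes, 0 were past 2-fold in clusters 0, 1, 2, 4, 7 and 11. The shares over all genes there ran from 3.05% to 5.40%. Rag1, Rag2, Dntt and Ptcra were under the minimum in each of these clusters, so no ratio is given for them. In the list of gamma-delta T cell programs, 0 of 8 were past it in cluster 11, where Cd163l1 had a ratio of 1.02 (0.823 to 1.27) and Maf of 0.735 (0.576 to 0.945). Cd44, an adhesion and activation marker, had ratios of 0.505 (0.447 to 0.572), 0.492 (0.429 to 0.564), 0.564 (0.465 to 0.688), 0.473 (0.389 to 0.575) and 0.506 (0.418 to 0.615) in clusters 0, 1, 2, 4 and 7, and was past 2-fold lower in clusters 1 and 4. In cluster 11 its ratio was 0.807 (0.581 to 1.14). Of the NKT and MAIT cell list, 1 of 5 was past 2-fold in cluster 1 (Slamf6, 3.05% of all genes) and 1 of 6 in cluster 2 (5.40%). It was 1 of 5 in cluster 4 (3.42%), 0 of 3 in cluster 7 (4.78%) and 0 of 1 in cluster 0 (3.24%), all of those past it higher. In cluster 11, 0 of the 8 listed reached the minimum. Zbtb16 and Klrb1 were under the minimum in all of these clusters, so the counts do not speak for NKT or MAIT cells. Xcl1, a chemokine, had a ratio of 3.83 (2.73 to 5.52) in cluster 2, and Cd160 of 2.05 (1.60 to 2.65) in cluster 4.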

How the data were processed

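The authors deposited raw UMI counts per gene and cell for 2 single-cell libraries made with the standard 10x Genomics protocol from polyA RNA, per the labels, and a table of cells with cluster numbers at resolution 0.5. Cell Ranger, Seurat and the build mm10 are named in the submitters' processing notes, whose versions and strand or multi-read settings are not given in the sources used here. Cluster numbers were taken as deposited, and 142 cells outside that table entered no comparison. Depth ran from 1699 to 42577 UMIs per cell, 21570910 UMIs on chow and 26041785 on the ketogenic diet.

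UMIs were summed per cluster and library and divided by the sum of all genes (CPM). Intervals were exact Poisson for levels, exact conditional for ratios and Clopper-Pearson for shares. A gene was called past 2-fold on log2 ratios with 0.5 added to each sum, at a minimum of 50 UMIs over both libraries. Shares of cells used the hypergeometric expectation at 1000 UMIs per cell. No doublet caller was run, and leaving out the deepest 5% of cells of each cluster and library was an alternative. Clusters were named where at least 3 markers were raised. Genes named were the 9, the 5 most like each, the 5 most abundant other receptor genes, and members of 4 lists. The 9 genes, the lists and the markers were chosen with earlier results of these data known. Positions and transcripts came from GENCODE for GRCm38. Fold recovery, intervals and thinning were checked on simulated data. Python 3.11.15, numpy 2.4.6, scipy 1.17.1, pandas 2.3.3, biopython 1.88 and matplotlib 3.10.9 were used.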

Additional observations from a re-analysis of the deposited data

Results flagged for a closer look

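Tcrg-C1 differed between diets in opposite directions in a pair of clusters, with both intervals away from 1. Its ratio, ketogenic diet over chow, was 0.361 in cluster 2 and 2.63 in cycling cluster 10, and this difference was not tested, since each diet has 1 library. Summed with Tcrg-C2, from which its reads are hard to tell apart, the ratios were 0.892 (0.576 to 1.43) and 2.97 (1.99 to 4.56), so the opposite direction in cluster 2 rests on that split.

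The 142 cells outside the deposited cluster table were used in no comparison and held transcripts of the 9 genes. Their summed level was 972 CPM (846 to 1110) in 87 cells on chow and 1595 CPM (1413 to 1793) in 55 cells on the ketogenic diet, beside 517 and 1515 CPM in the clustered cells of the same libraries.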

How the results depend on the processing

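No leave-one-out fit was run because each diet has 1 library. For the same reason no paired analysis was possible. The ratio of cells with both kinds of chain was 2.61 with at least 2 UMIs unthinned and 2.89 with Trac as the only alpha-beta gene. That of alpha-beta-only cells was 1.34 unthinned and 2.63 with Trac alone. That of gamma-delta-only cells was 0.695 unthinned, 0.907 with at least 2 UMIs, 1.34 with Trdc alone and 1.42 with Trac alone, so its direction is not settled. The percent of cluster 4 cells with both kinds on the ketogenic diet was 27.6 thinned to 1500 UMIs, 43.7 unthinned, 25.0 with at least 2 UMIs, 10.5 with Trdc alone and 5.44 with Trac alone. For cluster 11 the same settings gave 61.8, 78.8, 68.2, 32.4 and 11.8. Trac with Trdc over the product of shares on the ketogenic diet was 0.177 in cluster 4 thinned to 1000 UMIs, and 0.134 in cluster 4 and 0.127 in cluster 11 with at least 2 UMIs, settings chosen after seeing the data. Past 2-fold were 9 of 45 gene and cluster pairs in clusters 0, 1, 2, 4, 7, 10 and 11. The shares over all genes there ran from 3.05% to 8.62%. Of these 9 pairs, 5 were in cycling cluster 10, which mixes cell types. The count was 4 of 30 at a minimum of 200 UMIs, and 8 to 12 otherwise. Of 270 diet ratios of single genes recomputed, 7 left their interval, and no call changed sign. Of the other recomputed results 48 moved and 118 did not. Subtracting 10% free RNA moved 25 results and left 111. With 10% free RNA subtracted, Trac on the ketogenic diet fell to 2.20 CPM in cluster 0 and to 27.7 in cluster 1. Its low levels there, and its ratios between diets there, thus rest on that choice. With at least 5 or 15 Trbc UMIs the outer share in cluster 2 was 46.3% and 29.1%. Without barcodes found in both libraries, all 55 results recomputed stayed within their intervals. Causes of these shifts were not tested.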
